A study of Mus musculus with 2 samples.

Results

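Proliferating nuclei of all lineages were examined in single-nucleus RNA-seq data from mouse hearts. A nucleus was counted as proliferating when mitochondrial genes gave at most 20% of its unique molecular identifiers (UMIs, 1 per captured transcript), when Mki67 and Top2a together had at least 1 UMI, and when 8 genes (Mki67, Top2a, Cenpf, Cenpe, Knl1, Kif11, Hmmr and Aspm) summed to at least 2 UMIs. In the control library 126 of 10114 nuclei met the rule, and in the PD-1 inhibitor library 83 of 7952 did, which makes 209 of 18066 nuclei in all. The nuclei were thus chosen by the measured UMIs of these 8 genes, whose levels are given as a description only.

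The hearts came from male C57BL/6 mice that were 8 weeks old at the start. The PD-1 inhibitor group received an anti-mouse PD-1 antibody intraperitoneally at 5 mg/kg on days 1 and 14 of a cycle of 28 days, and the control group received PBS on the same days. Each group is 1 library of nuclei, and the number of hearts behind a library is not given in the sources used here. No test was therefore made, and the 95% intervals given reflect the error of counting alone. The control library held 13177525 UMIs in 10197 barcodes and the PD-1 inhibitor library 10875248 UMIs in 7967 barcodes. The median kept nucleus had 1016.5 and 1065.5 UMIs, and the shallowest had 500. The libraries shared 48 barcode sequences, and 1 of the 209 proliferating nuclei carried such a barcode.

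A cell that enters the cycle copies its DNA in S phase, condenses its chromosomes, separates them on a spindle in mitosis and divides by cytokinesis. Transcripts for the mitotic machinery build up from late S phase into G2 and M, and in the nuclei of resting cells they are scarce. Ki-67, the product of Mki67, coats mitotic chromosomes and is the usual stain for cycling cells, and Top2a untangles sister chromatids. In the adult mouse heart most cardiomyocytes have left the cycle, whereas resident macrophages, lymphocytes and stromal cells can still divide.

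The promoters of 4 genes are shown because genes of the mitotic programme are known to share short promoter elements. These are the cell cycle genes homology region (CHR), with the letters TTTGAA, and the CCAAT box. The E2F letters searched were TTGGCGC and TTCGCGC, which are common in genes of DNA replication. Both strands were searched, and TTGGCGC can overlap the CCAAT box on the opposite strand. Mki67 and Top2a are the genes that the rule requires. Kif23 and Pola1 were the spindle gene and the DNA replication gene with the most UMIs in proliferating nuclei among those matched in the promoter table. The windows are RefSeq promoters of 300 bases on GRCm38.p6, printed 5′ to 3′ on the gene's strand, with the matched letters in capitals. They lie at chr7:135716330-135716629 (Mki67), chr11:99024140-99024439 (Top2a), chr9:61946750-61947049 (Kif23) and chrX:93632106-93632405 (Pola1), all on the minus strand.

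Mki67: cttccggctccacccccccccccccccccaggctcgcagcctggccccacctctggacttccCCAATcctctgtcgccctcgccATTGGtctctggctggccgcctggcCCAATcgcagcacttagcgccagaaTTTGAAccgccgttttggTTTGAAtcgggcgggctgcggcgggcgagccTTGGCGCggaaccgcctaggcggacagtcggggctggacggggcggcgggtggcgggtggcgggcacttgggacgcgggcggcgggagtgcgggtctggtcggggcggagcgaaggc

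Top2a: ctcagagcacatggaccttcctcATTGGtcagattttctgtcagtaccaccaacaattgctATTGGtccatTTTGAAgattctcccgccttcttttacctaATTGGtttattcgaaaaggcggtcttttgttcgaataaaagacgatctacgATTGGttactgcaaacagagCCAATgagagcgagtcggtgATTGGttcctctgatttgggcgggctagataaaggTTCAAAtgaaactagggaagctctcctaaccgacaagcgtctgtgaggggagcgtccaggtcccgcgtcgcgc

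Kif23: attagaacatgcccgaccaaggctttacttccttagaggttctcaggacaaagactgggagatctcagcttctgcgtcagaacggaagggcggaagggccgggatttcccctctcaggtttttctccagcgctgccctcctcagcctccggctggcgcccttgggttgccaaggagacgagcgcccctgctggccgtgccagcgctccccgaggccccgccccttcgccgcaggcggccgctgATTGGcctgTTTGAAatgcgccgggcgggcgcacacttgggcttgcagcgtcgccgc

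Pola1: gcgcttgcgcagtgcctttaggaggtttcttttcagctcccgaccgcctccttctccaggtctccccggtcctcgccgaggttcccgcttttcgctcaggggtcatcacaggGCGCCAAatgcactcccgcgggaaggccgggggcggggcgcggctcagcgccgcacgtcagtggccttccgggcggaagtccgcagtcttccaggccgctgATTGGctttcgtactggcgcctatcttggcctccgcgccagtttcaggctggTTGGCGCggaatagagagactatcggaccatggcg

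The Mki67 window held 2 CHR matches, 3 CCAAT boxes and 1 E2F match. The Top2a window held 2 CHR matches and 6 CCAAT boxes, and the Kif23 window held 1 of each. In the Pola1 window there were 2 E2F matches, 1 CCAAT box and no CHR letters. Of the 8 rule genes, 7 had a CHR match, 7 had a CCAAT box and 6 had both. Among the 61 windows matched to the spindle, kinetochore and cytokinesis lists, 60.7% held the CHR letters, 70.5% the CCAAT box and 11.5% an E2F match. For the 63 windows of the replication, nucleotide synthesis and repair lists the shares were 12.7% and 52.4%, and 30.2% held an E2F match. Over all 32851 windows of this length the CHR letters occurred in 17.9%, the CCAAT box in 37.4% and the E2F letters in 3.89%. The matches describe the letters in these windows and say nothing about binding in these hearts.

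Proliferating nuclei made up 1.25% of the control library (1.04 to 1.48%) and 1.04% of the PD-1 inhibitor library (0.832 to 1.29%). The ratio of PD-1 inhibitor to control was 0.838 (0.627 to 1.11), so a difference between the 2 libraries was not detectable at this depth. The rule found more nuclei where more UMIs were read. Over both libraries the share was 0.416% among nuclei of 500 to 703 UMIs and 2.68% among nuclei of 1695 to 23253 UMIs. Proliferating nuclei had a median of 1563.5 UMIs in control and 1622 in PD-1 inhibitor, against 1013.5 and 1062 in the other nuclei. After every nucleus was thinned to 500 UMIs, which left out no nucleus, 81 control nuclei (0.801%) and 56 PD-1 inhibitor nuclei (0.704%) met the rule, with a ratio of 0.879 (0.614 to 1.25).

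**Figure D1:**
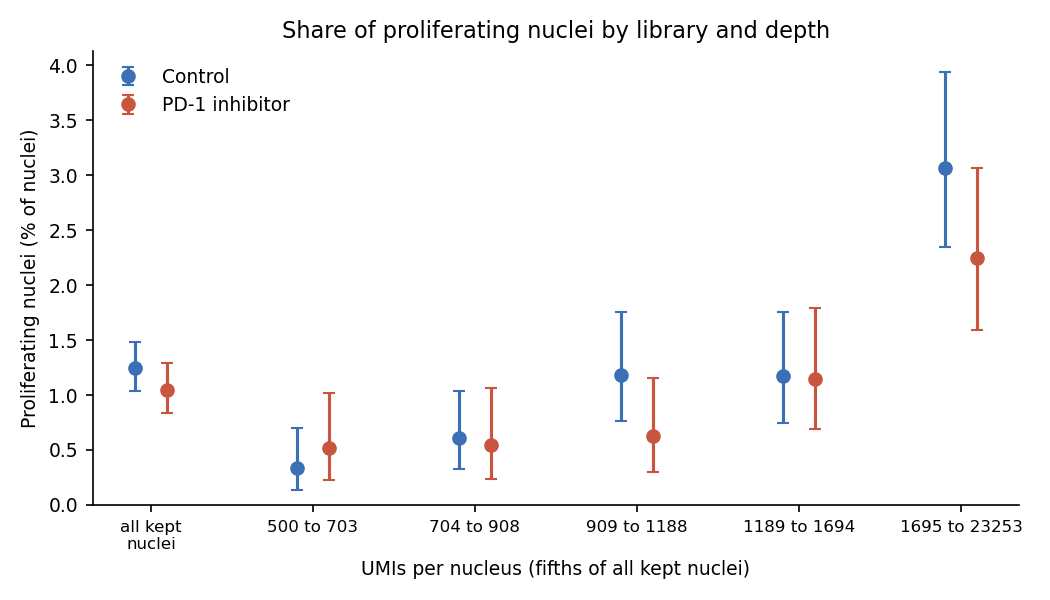
Share of proliferating nuclei (percent of nuclei, vertical axis) in each library, for all kept nuclei and for 5 bins of UMIs per nucleus (horizontal axis). Points are shares and bars are 95% Clopper-Pearson intervals. The share over both libraries goes from 0.416% in the shallowest bin to 2.68% in the deepest, and the intervals of the libraries overlap in every bin.

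Among the rule genes, Mki67 gave 407 UMIs in 99 of the control proliferating nuclei and 277 UMIs in 72 of those from the PD-1 inhibitor library. Mki67 lies at chr7:135689784-135716361 on GRCm38. Top2a, at chr11:98992943-99024189, gave 284 and 213 UMIs in 89 and 61 nuclei. Both genes were detected together in 62 control and 50 PD-1 inhibitor nuclei. Kif11, a spindle motor, gave 131 and 68 UMIs. Cenpe, a kinetochore motor, gave 124 and 70 UMIs, and Cenpf, a kinetochore protein, 120 and 84. The kinetochore scaffold Knl1 gave 109 and 58 UMIs, the spindle pole gene Aspm 90 and 59, and the spindle-associated hyaluronan receptor gene Hmmr 50 and 56.

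The rule admits no nucleus on Cenpf alone, so it leaves Cenpf UMIs outside the proliferating nuclei by its construction. There were 121 such UMIs in 89 control nuclei and 112 in 69 PD-1 inhibitor nuclei. Over both libraries 152 of them lay in cardiomyocyte-like nuclei, at 32.0 CPM (UMIs of a gene per 1000000 UMIs of the nuclei summed), against 11.6 in macrophage-like, 9.03 in T cell-like, 3.15 in EC-like and 1.25 in fibroblast-like nuclei, and 17.7 CPM in the B cell-like cluster from 6 UMIs. Of these, 89 came from the cardiomyocyte-like cluster led by Acta1, which reached 51.3 CPM.

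The count of rule UMIs per proliferating nucleus ranged from 2 to 58 in control and from 2 to 42 in PD-1 inhibitor, with medians of 6 and 7. At the threshold itself stood 20 control and 16 PD-1 inhibitor nuclei with exactly 2 UMIs. Just outside it, 71 control and 55 PD-1 inhibitor nuclei had a single UMI that was Mki67 or Top2a, and 51 and 44 nuclei had 2 or more rule UMIs but neither of these genes.

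Genes that the rule did not use differed between these bands. The spindle, kinetochore and cytokinesis lists, called the mitosis lists below, hold 64 genes, and the replication, nucleotide synthesis and repair lists, called the replication lists, hold 67 genes. Over both libraries the mitosis lists gave 658 CPM (647 to 668) in nuclei without a rule UMI. They gave 946 (811 to 1098) in nuclei with a single Mki67 or Top2a UMI and 1411 (1246 to 1593) in nuclei with 2 or more UMIs of the other rule genes. Within the chosen nuclei the level was 2097 (1752 to 2490) at exactly 2 rule UMIs, 2344 (1837 to 2947) at 3, 10383 (9796 to 10997) at 4 to 9 and 18275 (17670 to 18896) at 10 or more. The libraries differed in the bands around the threshold. In control the level was 1880 in nuclei with 2 or more UMIs of the other rule genes and 1517 in the chosen nuclei with 2. In PD-1 inhibitor these values were 956 and 3394, so the step from that band went in opposite directions. Nuclei with a single Mki67 or Top2a UMI were at 789 in control and 1156 in PD-1 inhibitor. From them the step to the chosen nuclei was upward in both libraries. At 3 rule UMIs the values were 2737 in control and 1838 in PD-1 inhibitor. In both libraries the nuclei with 2 or 3 rule UMIs lay nearer to the nuclei just outside the threshold than to those with 4 to 9, which were at 9042 and 13197. The replication lists went over both libraries from 716 (705 to 727) without a rule UMI to 2016 (1678 to 2402) at 2, 3917 (3253 to 4677) at 3, 6845 (6369 to 7347) at 4 to 9 and 6380 (6024 to 6751) at 10 or more. By library their level was 1517 in control and 3133 in PD-1 inhibitor at 2, and 5075 and 2426 at 3, from 10 and 7 nuclei. Between the last 2 bands the intervals of the mitosis lists were apart in each library. Those of the replication lists overlapped in control and over both libraries, and in PD-1 inhibitor the level was 7924 (7034 to 8896) at 4 to 9 and 6034 (5507 to 6599) at 10 or more.

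**Figure D2:**
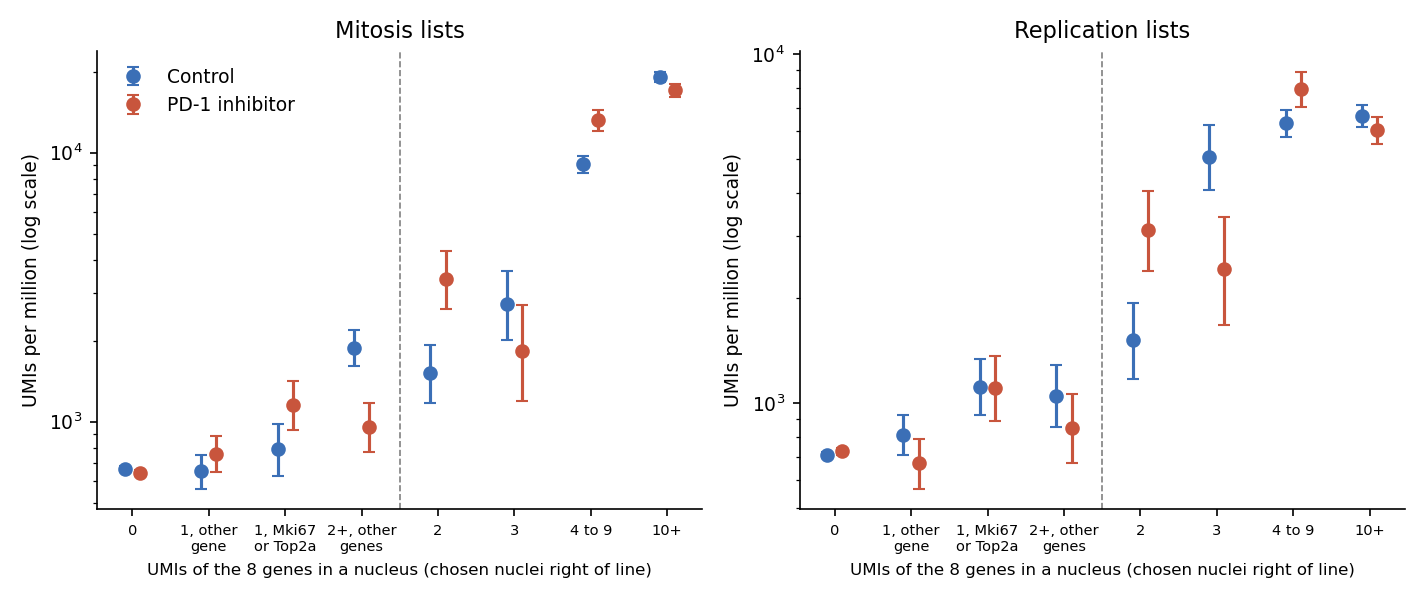
CPM (log scale, vertical axes) of the mitosis lists (left) and the replication lists (right), without the 8 rule genes, by the number of rule UMIs in a nucleus (horizontal axis) and by library. Points are levels summed over nuclei, bars are 95% Poisson intervals, and the chosen nuclei stand right of the dashed line. Over both libraries the mitosis lists go from 658 to 18275 CPM and the replication lists from 716 to 6380.

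Proliferating nuclei occurred in 9 of 11 classes of nuclei. The classes are clusters built without cell cycle genes and named from lineage markers. Macrophage-like nuclei were the most frequent class, with 38 of 126 control nuclei (30.2%, 22.3 to 39.0%) and 26 of 83 PD-1 inhibitor nuclei (31.3%, 21.6 to 42.4%). Summed over both libraries T cell-like nuclei came next, with 17 (13.5%, 8.06 to 20.7%) and 22 (26.5%, 17.4 to 37.3%). That place depends on the clusters. By the marker genes detected in each nucleus itself, 7 and 14 were called T cell. Summed over both libraries these were fewer than the 25 and 14 called cardiomyocyte, 19 and 8 called EC and 17 and 8 called fibroblast. EC-like nuclei, from endothelial cells, numbered 20 and 10 and in control outnumbered the T cell-like nuclei, dendritic cell-like nuclei 12 and 9, and fibroblast-like nuclei 10 and 7. Cardiomyocyte-like nuclei numbered 9 and 5, mural cell-like nuclei (pericytes and smooth muscle) 9 and 3, and B cell-like nuclei 10 and 1. Of adipocyte-like nuclei 1 of 173 and 0 of 16 met the rule, where 0 allows up to 18.8%. That 1 nucleus had exactly 2 rule UMIs, was called a doublet and was called macrophage from its own markers. None of 512 control and 489 PD-1 inhibitor mesothelial cell-like nuclei met the rule, which allows shares of up to 0.586% and 0.613%. None of 32 and 12 glial cell-like nuclei did, which allows up to 9.38% and 25%.

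As a share of each class, the values for proliferating nuclei were higher in the 4 immune classes than in the stromal classes and cardiomyocytes. Over both libraries they made up 13.5% of dendritic cell-like nuclei (8.53 to 19.8%), 8.21% of T cell-like (5.90 to 11.1%), 3.72% of B cell-like (1.87 to 6.55%) and 2.92% of macrophage-like nuclei (2.26 to 3.72%). The dendritic value rests on a cluster whose label was weak, as 2 of its 21 proliferating nuclei were called dendritic from their own UMIs and at a coarser clustering none lay in a dendritic cell-like cluster. They made up 1.08% of mural cell-like (0.561 to 1.89%), 0.548% of cardiomyocyte-like (0.300 to 0.918%), 0.545% of EC-like (0.368 to 0.778%) and 0.373% of fibroblast-like nuclei (0.218 to 0.597%). At 500 UMIs per nucleus the shares were 8.33% for dendritic cell-like, 6.32% for T cell-like, 1.96% for macrophage-like and 1.69% for B cell-like nuclei. In the same setting they were 1.08% for mural cell-like, 0.345% for EC-like, 0.235% for cardiomyocyte-like and 0.198% for fibroblast-like nuclei. Neighbouring classes in the unthinned order had overlapping intervals, except macrophage-like and mural cell-like nuclei, whose intervals overlapped after thinning. The macrophage-like and EC-like intervals did not overlap with or without thinning.

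Between the libraries, no class named by cluster had a ratio whose interval excluded 1. The T cell-like class had a proliferating share of 6.30% in control (3.71 to 9.89%) and 10.7% in PD-1 inhibitor (6.85 to 15.8%), a ratio of 1.70 (0.864 to 3.42). Within the proliferating nuclei themselves the T cell-like share differed by a ratio of 1.97 (0.996 to 3.94). By the nuclei's own marker calls this share was 5.56% in control (2.26 to 11.1%) and 16.9% in PD-1 inhibitor (9.54 to 26.7%). These lie further apart in ratio than the cluster-based 13.5% and 26.5%, and an interval for that ratio was not computed. Macrophage-like nuclei had shares of 2.97% and 2.86%, a ratio of 0.964 (0.562 to 1.63). EC-like shares were 0.684% and 0.388%, a ratio of 0.567 (0.237 to 1.27), and the thinned ratio was 1.02 (0.367 to 2.80). B cell-like nuclei had 4.81% and 1.14%, a ratio of 0.236 (0.00545 to 1.66) that rests on 1 nucleus in the PD-1 inhibitor library.

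**Figure D3:**
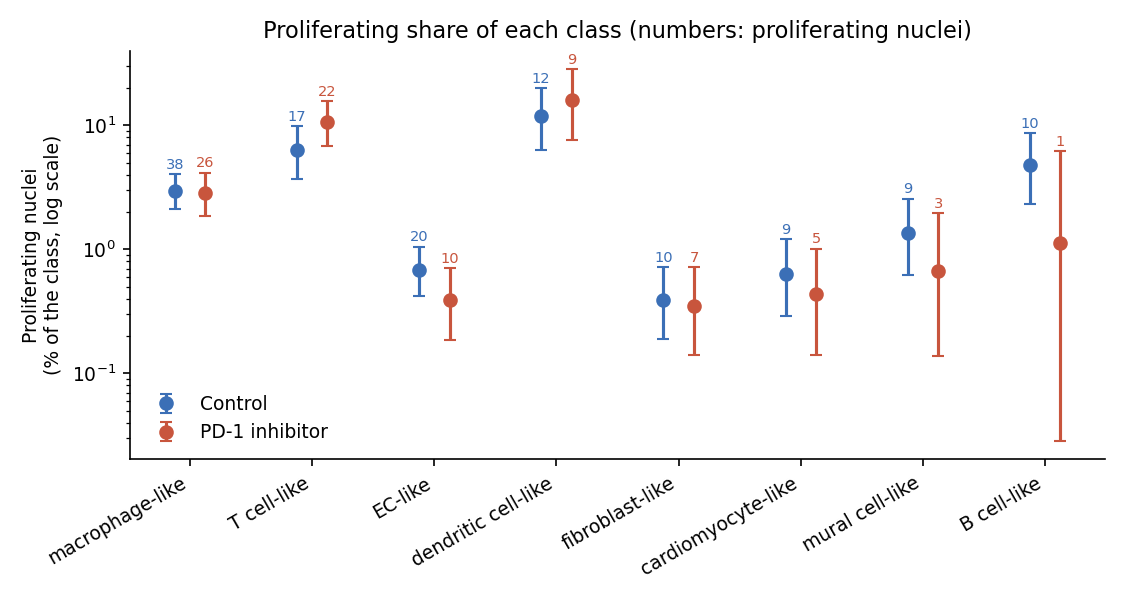
Proliferating nuclei as a percentage of each class (log scale, vertical axis) in control and PD-1 inhibitor libraries, for the 8 classes with proliferating nuclei in both. Points are shares, bars are 95% Clopper-Pearson intervals, and the numbers are proliferating nuclei. Dendritic cell-like (13.5% over both libraries) and T cell-like nuclei (8.21%) stand highest and fibroblast-like nuclei (0.373%) lowest, and the intervals of both libraries overlap in every class shown. Of the 21 dendritic cell-like nuclei, 2 were called dendritic from their own UMIs.

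The macrophage-like proliferating nuclei carried the markers of their class, at a summed level of 12041 CPM against 13781 in the other macrophage-like nuclei. Mrc1, a mannose receptor, gave 233 UMIs in 48 of the 64 nuclei, or 2105 CPM against 2396 in the others. The complement genes C1qc and C1qb gave 1924 and 1834 CPM against 1761 and 1665. Of the 64 nuclei, 50 were also called macrophage from their own detected markers, and 7 were called cardiomyocyte. Summed cardiomyocyte markers stood at 2827 CPM in these nuclei and at 4117 in the other macrophage-like nuclei. Summed cardiomyocyte markers stood between 1930 CPM (mural cell-like) and 4241 CPM (T cell-like) in the proliferating nuclei of the 7 classes, other than cardiomyocyte-like, with at least 10 of them, and between 3246 CPM (fibroblast-like) and 5779 CPM (T cell-like) in the other nuclei of these classes. Over all classes outside the cardiomyocyte-like one, 94.4% of proliferating and 92.0% of other nuclei had at least 1 UMI of the 10 cardiomyocyte markers. The part of this background in the marker calls was not tested.

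Genes of macrophage subsets were looked up after the data were seen. Lyve1, a marker of resident cardiac macrophages, had a UMI in 6 of 38 control (15.8%) and 12 of 26 PD-1 inhibitor nuclei (46.2%), against 22.2% and 33.1% of the other macrophage-like nuclei. Scaled to depth, Lyve1 stood at 388 CPM over both libraries and at 581 CPM in the others. Folr2, another resident marker, was at 226 CPM (23.4% of the 64 nuclei) and 389 CPM in the others (23.8%). Timd4, also a resident marker, was at 143 CPM in control and 210 CPM in PD-1 inhibitor, against 180 and 168 in the others, so its direction differed between the libraries. Ccr2, found on monocyte-derived macrophages, was at 175 and 41.9 CPM against 162 and 265, from 11 and 2 UMIs, and differed in direction too. The antigen presentation genes of class II had lower values in the proliferating nuclei, with Cd74 at 4462 against 6970 CPM, H2-Aa at 1238 against 2163 and H2-Ab1 at 1283 against 2397. In fibroblast-like nuclei, at a median of 1062 UMIs, the shares were 1.72% for Lyve1 and 0.816% for Folr2. The median depth was 1609 UMIs in the proliferating and 925.5 UMIs in the other macrophage-like nuclei.

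Among the 39 T cell-like proliferating nuclei the T cell signalling adaptor Skap1 gave 77 UMIs in 26 nuclei, Themis 42 UMIs in 13 and Cd3e, a chain of the T cell receptor complex, 41 UMIs in 21. Only 3, 4 and 0 UMIs of these genes lay in the proliferating nuclei of other classes. The markers' summed level was 5903 CPM, against 6578 in other T cell-like nuclei. From their own detected markers 21 of the 39 were called T cell, 5 cardiomyocyte and 4 fibroblast. NK cell, EC and macrophage had 1 call each, and 6 nuclei had no call. Over all classes the NK cell markers stood at 107 CPM in proliferating and 15.1 in other nuclei, and the T cell markers at 873 and 154. The part of NK cells in the T cell-like class was not tested. Cd8a was detected in 12 nuclei (30.8%) and in 20.2% of the other T cell-like nuclei. Its level was lower in the proliferating nuclei of control (250 against 377 CPM) and higher in those of PD-1 inhibitor (583 against 297 CPM), so no common direction was seen. Cd4 was detected in 5 nuclei (12.8%) and in 10.3%, at 125 against 130 CPM in control and 92.1 against 196 CPM in PD-1 inhibitor. The cytotoxic granule genes Gzmb and Nkg7 were detected in 30.8% and 53.8% of the proliferating nuclei and in 14.2% and 31.4% of the others. Gzmb stood at 375 against 263 CPM in control and 491 against 456 CPM in PD-1 inhibitor. Nkg7 stood at 874 against 424 CPM in control, while its levels were near each other in PD-1 inhibitor (1167 against 1146 CPM). The chemokine Ccl5 was seen in 9 of 17 control (52.9%) and 19 of 22 PD-1 inhibitor nuclei (86.4%), and in 39.9% and 55.7% of the other T cell-like nuclei. Its level in the others, 966 CPM in control and 2160 in PD-1 inhibitor, differed between the libraries in the same direction as in the proliferating nuclei, at 1124 and 2518 CPM. Foxp3, the factor of regulatory T cells, was seen in 0 of 39 nuclei, which allows a share with a UMI of up to 7.69%. Pdcd1, which encodes PD-1, had 3 UMIs in 2 nuclei, both from the PD-1 inhibitor library. Among the other T cell-like nuclei it was seen in 5 of control (1.98%) and 7 of PD-1 inhibitor (3.83%). In fibroblast-like nuclei the shares were 0.0882% for Cd8a, 0.176% for Cd4 and for Gzmb, 0.154% for Nkg7 and 0.794% for Ccl5. The proliferating T cell-like nuclei had a median of 1309 UMIs and the others 866.

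EC-like proliferating nuclei carried the endothelial junction genes Pecam1 (78 UMIs in 26 of 30 nuclei) and Cdh5 (56 UMIs in 18), and the phosphatase gene Ptprb (94 UMIs in 19). Their summed EC markers stood at 7392 CPM, against 10788 in other EC-like nuclei. By cluster, 16 of the 30 lay in the EC-like cluster led by Aplnr, the apelin receptor gene, where they made up 0.918% of 1743 nuclei (0.526 to 1.49%). In the larger cluster led by Nrg1 there were 6 of 2836 (0.212%, 0.0777 to 0.460%). These intervals do not overlap. The clusters led by Wnt9b and Mmrn1 held 5 of 512 and 3 of 410.

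Fibroblast-like proliferating nuclei carried Dcn (214 UMIs in 16 of 17 nuclei), Col3a1 (114 UMIs in 12) and Col1a2 (61 UMIs in 15), genes of the collagen matrix, and 16 of 17 were called fibroblast from their own UMIs. Over all classes together, fibroblast-like included, 78.9% of proliferating and 79.0% of other nuclei had a UMI of the 10 fibroblast markers. The proliferating nuclei of other classes held 374 Dcn, 63 Col3a1 and 27 Col1a2 UMIs. The level of Dcn was 7284 CPM in the fibroblast-like proliferating nuclei and 10232 in the other fibroblast-like nuclei. The 12 mural cell-like nuclei carried the pericyte genes Abcc9 (60 UMIs in 11 nuclei), Rgs5 (49 in 9) and Pdgfrb (29 in 9). Their summed mural cell markers stood at 9298 CPM, against 14421 in the other mural cell-like nuclei. All 12 lay in the cluster led by Lin7a, and 0 of 110 control and 0 of 55 PD-1 inhibitor nuclei of the cluster led by the smooth muscle gene Cnn1 met the rule, which allows up to 2.73% and 5.45%.

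The dendritic cell-like label was weak by the calls of single nuclei, and not only in the proliferating ones. Of all kept nuclei 12 in control and 3 in PD-1 inhibitor were called dendritic, while the cluster held 100 and 56 nuclei. Of 7 dendritic cell markers a nucleus carried a median of 2, and 2 of 21 nuclei were called dendritic from their own UMIs, against 8 called cardiomyocyte and 5 without a call. Clec9a, a receptor of cross-presenting dendritic cells, gave 28 UMIs in 8 nuclei, Batf3 16 UMIs in 6 and Zbtb46 12 UMIs in 7. Clec9a was at 549 CPM against 350 in the others of the cluster and Batf3 at 314 against 263. Zbtb46 went the other way, at 235 against 284. Summed dendritic markers were at 1667 CPM in these nuclei and 1986 in the others of the cluster. At a coarser clustering all 21 nuclei fell into a macrophage-like cluster.

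The 11 B cell-like proliferating nuclei held 59 UMIs of Bank1, a B cell scaffold gene, in 7 nuclei, with 22 UMIs of Ralgps2 in 5 and 16 of Cd22 in 3. All of these came from the control library. Summed B cell markers stood at 6805 CPM, against 12425 in the other B cell-like nuclei. Named after its values were seen, Igha, the heavy chain of immunoglobulin A, gave 191 UMIs in 2 nuclei, with 73 UMIs in a control nucleus and 118 in a PD-1 inhibitor nucleus. Jchain, which joins secreted immunoglobulins, reached 10 and 30 UMIs in 1 nucleus of each library. Nuclei with at least 10 UMIs of either gene were all B cell-like. The PD-1 inhibitor nucleus was the only B cell-like one of its library. It was called a doublet, carried 1 of the 10 B cell markers and had 3 rule UMIs. Outside the proliferating nuclei Igha gave 557 UMIs in 125 nuclei and Jchain 77 in 37. Of the 11 nuclei, 5 were called B cell from their own UMIs and 3 cardiomyocyte. Scrublet called 3 of the 11 nuclei doublets, and 12.3% of the other B cell-like nuclei.

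The cardiomyocyte-like proliferating nuclei met the rule with few rule UMIs and few other UMIs of the programme. All 14 carried Myh6, the main cardiac myosin heavy chain gene, with 519 UMIs, and all 14 carried Tnnt2, with 279 UMIs, while Ttn gave 315 UMIs in 13. Their rule UMIs had a median of 2.5 and a maximum of 6. The mitosis lists stood at 1549 CPM (1153 to 2036), against 526 in the other cardiomyocyte-like nuclei. In every other class with at least 10 proliferating nuclei the level was higher: 19462 in mural cell-like, 15392 in macrophage-like, 14092 in fibroblast-like, 13201 in T cell-like, 12901 in EC-like, 10079 in dendritic cell-like and 3527 in B cell-like nuclei. Median rule UMIs in those classes ran from 3 (fibroblast-like and B cell-like) to 12 (mural cell-like). Proliferating nuclei of all classes with exactly 2 rule UMIs had a mitosis level of 2097 (1752 to 2490), which overlaps the cardiomyocyte-like interval. In cardiomyocyte-like nuclei the replication lists were at 668 (419 to 1011), against 398 in the others of the class. Of the 14, 10 lay in the Acta1-led cluster that also held more Cenpf UMIs outside the proliferating nuclei than any other cluster. The part of that background in these 14 nuclei was not tested.

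The UMIs of cell cycle genes outside the rule were set against the UMIs expected from the other nuclei of the same library and class at the same total. Among 193 list genes with at least 50 UMIs, 154 were at least 2-fold higher in both libraries and 1 was at least 2-fold lower. These 50 UMIs include those of the proliferating nuclei, so genes that are high there pass more readily, and this count and the counts by list below are a description of the genes that passed. Among all 14513 genes of that depth 3.98% were at least 2-fold higher and 10.8% lower in both, and the median ratio was 0.942. With at least 500 UMIs, 30 of 54 list genes were higher, and 1.67% of all 8920 genes.

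Cytokinesis genes had the highest ratio of summed UMIs among the lists, at 25.3 (23.8 to 26.8). All 12 of 12 were higher in both libraries, with a median ratio of 27.1, while the spindle list had a higher median, at 36.9. Diaph3, a formin, gave 208 UMIs against 5.90 expected. Anln, which anchors the contractile ring, gave 119 against 4.89, and Racgap1, part of the central spindle, 115 against 5.74. Centromere and kinetochore genes were at 13.9 (13.3 to 14.6), with 23 of 23 higher. Hjurp, the chaperone that loads the centromeric histone, gave 257 UMIs against 51.2 expected, with 3036 UMIs in other nuclei. Cenpp and the centromeric histone gene Cenpa gave 153 and 142 UMIs against 8.46 and 17.6. Spindle and kinesin genes were at 13.4 (12.8 to 14.0), with 20 of 21 higher. Kif23 gave 203 UMIs against 11.0 and Prc1, which bundles the central spindle, 190 against 1.85, while the microtubule polymerase gene Ckap5 gave 174 against 53.7. The exception was Numa1, at a ratio of 1.44.

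Condensin, cohesin and chromatin genes stood at 4.01 (3.85 to 4.18), with 18 of 22 higher. Smc4 gave 339 UMIs against 87.9 expected, and Smc2, its condensin partner, 141 against 9.19. Tmpo, a nuclear lamina gene, gave 277 against 62.3. The 4 genes below the threshold were Smc1a, Smc3, Stag2 and Pds5b, at ratios of 1.91, 1.41, 0.834 and 1.26. The cohesin subunit gene Rad21 was above it, with 135 UMIs against 36.4, a ratio of 3.71.

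DNA replication genes were at 4.17 (3.95 to 4.40), with 30 of 36 higher. Atad2, a chromatin ATPase, gave 213 UMIs against 28.1 expected, Pola1, the catalytic subunit of DNA polymerase alpha, 87 against 28.0, and Hells, a chromatin remodeller, 65 against 7.43. Nucleotide synthesis genes were at 6.53 (5.72 to 7.41), with 6 of 7 higher. Tyms gave 52 UMIs against 5.76, Rrm1 45 against 8.21 and Rrm2, the S phase subunit of ribonucleotide reductase, 45 against 0.862. Genes of replication-coupled repair were at 10.2 (9.42 to 11.0), with 15 of 17 higher. The polymerase gene Polq gave 71 UMIs against 3.56, and the helicase genes Blm and Brip1 gave 66 against 9.34 and 61 against 6.02.

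Cyclins and mitotic regulators were at 3.34 (3.15 to 3.54) as a sum, while their median ratio was 11.6 and 17 of 23 were higher. Ccnb2, a mitotic cyclin, gave 133 UMIs against 1.62 expected, and Cdc20, which activates the anaphase-promoting complex, 76 against 1.38. Ccnd3 gave 78 UMIs against 118, a ratio of 0.662 (0.522 to 0.829). The other D-type cyclins and their kinases were not higher in both libraries, with ratios of 0.739 for Ccnd1, 0.770 for Ccnd2, 0.942 for Cdk6 and 1.49 for Cdk4. By library Ccnd2 was at 1.15 in control and 0.288 in PD-1 inhibitor, from 41 and 8 UMIs. Ccnd1, Ccnd2, Cdk6, Cdk4 and Numa1 were named after their values were seen. The D-type cyclins act in G1, before S phase, and the mitotic cyclins after it.

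Cell cycle transcription factors were at 4.11 (3.71 to 4.55), with 7 of 11 higher. The atypical factor E2f7 gave 72 UMIs against 1.97 expected, Mybl1 42 against 1.75 and Tfdp1 40 against 14.4. Among the inhibitors, at 1.91 (1.76 to 2.07), 5 of 11 were higher. Rbl1, which encodes the pocket protein p107, had a ratio of 4.92 (3.93 to 6.10), and Cdkn1a, which encodes p21, 3.80 (3.01 to 4.74). Rb1, the retinoblastoma gene, was at 1.02 (0.821 to 1.26) over both libraries, with 1.21 in control and 0.665 in PD-1 inhibitor. Of 67 replication-dependent histone genes, whose transcripts mostly lack a poly(A) tail, 31 had a UMI in proliferating nuclei. As a list they were at 1.86 (1.58 to 2.18), 1 of 10 tested was higher and 1 was lower. H2bc4 gave 29 UMIs against 25.2 expected, H2bc6 23 against 15.3 and H1f5 15 against 0.527. The libraries went in opposite directions for H2bc4. It gave 6 UMIs against 14.2 in control and 23 against 11.0 in PD-1 inhibitor, the latter in 5 nuclei.

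**Figure D4:**
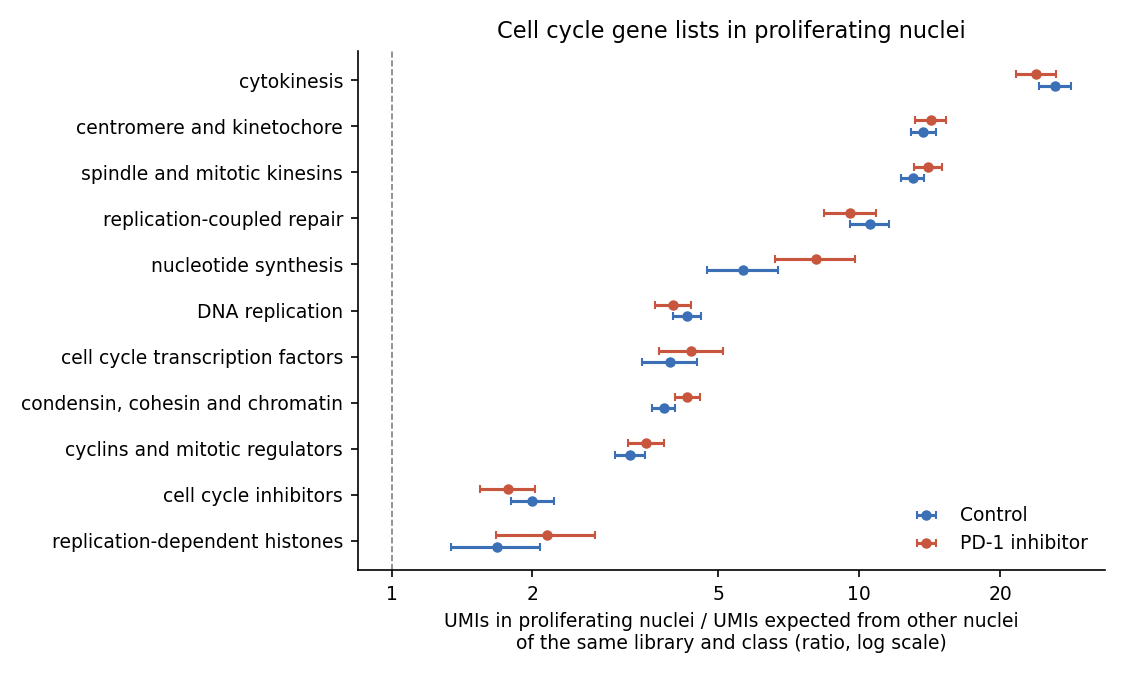
Ratio of UMIs in proliferating nuclei to UMIs expected from the other nuclei of the same library and class (log scale, horizontal axis) for 11 cell cycle lists without the rule genes, in each library. Points are ratios and bars are 95% Poisson intervals of the proliferating nuclei's count. Cytokinesis genes stand highest in both libraries (26.2 and 23.9). The lowest list is replication-dependent histones in control (1.68) and cell cycle inhibitors in PD-1 inhibitor (1.78), with overlapping intervals of these 2 lists in each library, and no interval reaches 1.

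Outside all lists, the 10 genes with the highest ratio among 6594 candidates are given with the UMIs of the other nuclei, which the ranking keeps low. Candidates had at least 5 UMIs in the proliferating nuclei of each library. Pbk, a mitotic kinase gene, gave 60 UMIs in 34 proliferating nuclei and 12 UMIs in the 17857 other nuclei. Pimreg gave 80 UMIs against 19, Troap 49 against 16, the helicase gene Pif1 36 against 17 and Cdca3 62 against 24. Depdc1a gave 50 against 14, the DNA glycosylase gene Neil3 183 against 55, the centriole gene Stil 70 against 26, Mastl, the Greatwall kinase gene, 79 against 54, and Prr11 43 against 45. In each pair the second count comes from all 17857 other nuclei. With 116 UMIs in 42 control nuclei and 67 in 26 PD-1 inhibitor nuclei, Neil3 gave more UMIs than Anln or Racgap1.

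The proliferating nuclei held more mitosis than replication UMIs. The replication lists made up 32.0% of the summed UMIs of both list groups in control (30.6 to 33.4%) and 30.9% in PD-1 inhibitor (29.2 to 32.6%). Of 173 nuclei with at least 5 such UMIs, 131 had more mitosis UMIs and 38 more replication UMIs. UMIs of both kinds occurred in 171 of the 209 nuclei, mitosis UMIs alone in 25, replication UMIs alone in 3 and neither in 10. The rule uses genes of mitosis, which bears on this split. By class the replication share over both libraries was 26.0% in EC-like (23.4 to 28.7%), 29.5% in T cell-like (26.8 to 32.4%), 29.9% in mural cell-like, 30.1% in cardiomyocyte-like, 30.4% in dendritic cell-like, 33.1% in macrophage-like (31.3 to 35.0%), 37.7% in fibroblast-like (34.0 to 41.5%) and 40.8% in B cell-like nuclei. From control to PD-1 inhibitor it went from 31.9% (27.7 to 36.3%) to 52.1% (44.8 to 59.4%) in the 10 and 7 fibroblast-like nuclei. Of the 323 mitosis UMIs in control fibroblast-like nuclei, 1 nucleus held 115 and another 127. The median over fibroblast-like nuclei with at least 5 such UMIs was 44.8% in control and 59.3% in PD-1 inhibitor. The replication share also went from 29.3% to 33.3% in mural cell-like and from 29.1% to 33.3% in cardiomyocyte-like nuclei. In the opposite direction it went from 28.4% (25.2 to 31.9%) to 21.2% (17.1 to 25.7%) in EC-like, from 33.3% (28.9 to 37.9%) to 26.9% (23.4 to 30.6%) in T cell-like and from 32.4% to 28.4% in dendritic cell-like nuclei. It was 32.9% and 33.3% in macrophage-like nuclei. The 1 B cell-like nucleus of PD-1 inhibitor held 1 UMI of these lists, so no change is given for that class. Nuclei are not replicates, and a single nucleus held up to 133 mitosis UMIs, so these counting intervals are narrower than the spread between nuclei.

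**Figure D5:**
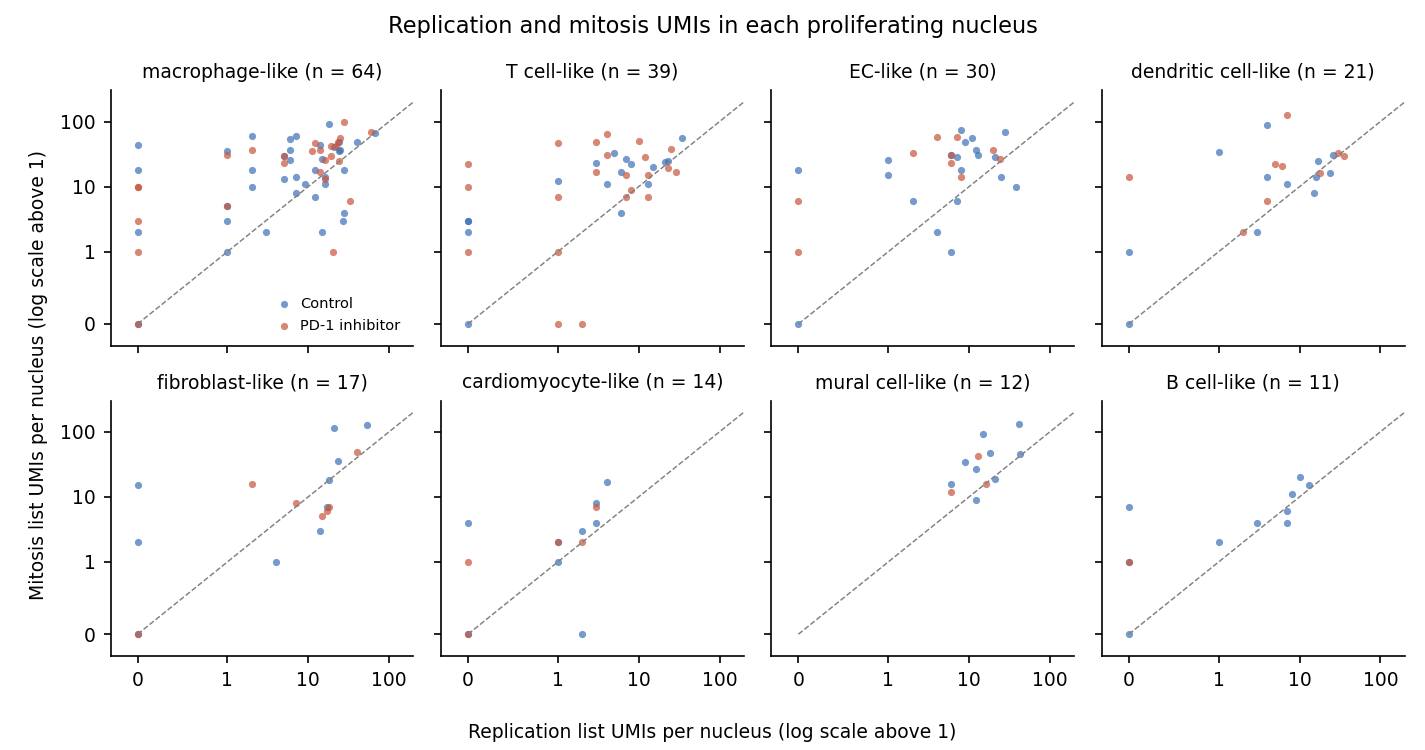
UMIs of the mitosis lists (vertical axes) against UMIs of the replication lists (horizontal axes) in each proliferating nucleus, both on a log scale above 1, by class and library. Each point is 1 nucleus and the dashed line marks equal counts. Of the nuclei with at least 5 such UMIs, 131 of 173 lie above the line, and the cardiomyocyte-like nuclei stand near the origin.

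Between the libraries the list levels in proliferating nuclei were compared on the log2 scale of CPM, PD-1 inhibitor over control. Condensin, cohesin and chromatin genes differed by 0.36 (0.24 to 0.48), from 5236 to 6732 CPM. Nucleotide synthesis genes differed by 0.42 (0.03 to 0.80), transcription factors by 0.31 (0.01 to 0.61), cyclins and mitotic regulators by 0.23 (0.06 to 0.40) and spindle genes by 0.18 (0.05 to 0.31). The intervals of the other 6 lists included 0. Of these, replication-dependent histones had the highest value of all lists, at 0.44 (-0.043 to 0.91), from 342 to 464 CPM. Of the histone list's 84 control and 69 PD-1 inhibitor UMIs, H2bc4 held 6 and 23, the latter in 5 nuclei. The histone value thus leans on 1 gene. DNA replication was at 0.09 (-0.08 to 0.25), kinetochore genes at 0.11 (-0.03 to 0.25), cytokinesis at 0.10 (-0.08 to 0.28), repair at -0.10 (-0.34 to 0.13) and inhibitors at -0.0017 (-0.25 to 0.24). Within macrophage-like nuclei alone the histone value was -0.38, the spindle value -0.15 and the cytokinesis value -0.06, each turned in direction. There inhibitors were at 0.22, nucleotide synthesis at 0.15, cyclins at 0.12, condensin genes at 0.16 and transcription factors at 0.64. As a mean over nuclei of all classes transcription factors were at 0.064. With at least 3 rule UMIs cyclins were at 0.12. Among 3777 genes with at least 30 UMIs in proliferating nuclei, 5.51% were at least 2-fold higher and 8.23% at least 2-fold lower in the PD-1 inhibitor library.

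The genes at both ends of that comparison were mostly genes of a single class. The highest was Ccl12, a monocyte-attracting chemokine gene, with 8 UMIs in 4 control nuclei and 45 UMIs in 4 PD-1 inhibitor nuclei, of which 50 lay in macrophage-like nuclei. In the other nuclei of all classes the log2 ratio of Ccl12 was 0.47, against 3.14 (2.11 to 4.51) in proliferating nuclei. AW112010, an interferon-induced transcript, had 12 and 42 UMIs and Ccl5 27 and 84, and 49 and 109 of these UMIs lay in T cell-like nuclei. The semaphorin gene Sema4a had 11 and 34 UMIs and the integrin gene Itgb7 8 and 24, with 17 and 16 UMIs in T cell-like nuclei. At the low end, Zfp804b had 31 UMIs in 6 control nuclei and 0 in PD-1 inhibitor, which is at least 6.27-fold lower against 3 counts over the library's proliferating nuclei, and 29 of its UMIs lay in mural cell-like nuclei. Cacna1c, a calcium channel gene, had 86 and 3 UMIs, D830005E20Rik 56 in 8 nuclei and 2 in 1 nucleus, and Gm31251 35 in 6 nuclei and 1, with 56, 52 and 30 UMIs in cardiomyocyte-like nuclei. Chrm3, a muscarinic receptor gene, had 31 and 1. The UMIs expected from the other nuclei of the same library and class were 13.2 in control and 2.34 in PD-1 inhibitor for Zfp804b. They were 28.1 and 74.05 for Ccl5 and 101 and 23.3 for Cacna1c. For Ccl12 they were nearer each other, at 14.4 and 18.1, as for Sema4a, at 32.0 and 32.1. The classes behind these genes differed in number between the libraries, as given above, and the part of that in the ratios was not tested.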

How the data were processed

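Nuclei of mouse hearts were analysed in 1 control and 1 PD-1 inhibitor library. Per the labels and the study's methods, the authors made the libraries with a GEXSCOPE single nucleus kit. They deposited raw UMI counts for each gene in each nucleus, and the submitters' processing notes name GRCm38 and mm10. The aligner and counter are not given in the sources used here.

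The nuclei, gene lists and comparisons were chosen with earlier results of these data known. With scanpy 1.11.5 (leidenalg 0.10.2), each nucleus was scaled to 10000 UMIs and logged, cell cycle genes were removed, and Leiden clusters (resolution 1) were built from 2000 variable genes, 30 principal components and 15 neighbours. A cluster took a class name ("X-like") when at least 3 markers of the class were detected, in at least 5% of its nuclei and at 2 times the level of the rest. All 20 clusters were named. A nucleus was also called on its own when 1 marker list led with at least 2 detected marker genes. The lists differed in length, for example 5 genes for NK cell, 7 for dendritic cell and 12 for EC. The calls were not corrected for list length. Scrublet called 6.25% of control and 4.19% of PD-1 inhibitor nuclei doublets. They were kept, as were 10.3% and 6.02% of the proliferating nuclei called so. Left out were 83 and 15 nuclei over 20% mitochondrial UMIs, of which 1 in each library had the rule's UMIs.

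Expected UMIs were those of non-proliferating nuclei of the same library and class at the same total. The genes counted had at least 50 UMIs. Log2 ratios had 0.5 UMI added. Shares have Clopper-Pearson, UMI sums Poisson and ratios conditional binomial intervals at 95%, and a count of 0 is read against 3 counts. Gene ratios printed with an interval used the counts of both sides. Named genes were the 8 rule genes, the 3 genes with most UMIs in proliferating nuclei of each cell cycle list, the 3 markers with most UMIs in each class of 5 or more proliferating nuclei, the 10 other genes with the largest ratio, and the 5 highest and 5 lowest between libraries with at least 30 UMIs. Other names were chosen after their values were seen. Histone genes were matched by identifier to GENCODE vM21 symbols, since the files use newer names.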

Additional observations from a re-analysis of the deposited data

How the results depend on the processing

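No paired analysis was possible because each condition has 1 library. The ratio of proliferating shares stayed within its interval in all 7 alternatives (0.798 to 0.891). The shares themselves were 1.95% in control and 1.74% in PD-1 inhibitor with Mki67 or Top2a alone, 0.801% and 0.704% at 500 UMIs, and 1.83% and 1.51% in nuclei of at least 1000 UMIs.

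By each nucleus's own marker call, T cells made up 5.56% of control and 16.9% of PD-1 inhibitor proliferating nuclei, dendritic cells 0.794% and 1.21%, cardiomyocytes 19.8% and 16.9% and PD-1 inhibitor B cells 0%. The PD-1 inhibitor dendritic share of its class was then 33.3% (1 of 3 nuclei) and the B cell share 0%. At resolution 0.5, macrophages took 39.7% of control proliferating nuclei and dendritic cells 0% in both libraries. Without doublets the PD-1 inhibitor B cell share was 0% of proliferating nuclei and 0% of its class. At 500 UMIs the share of the class was 1.87% for control macrophage-like, 0.342% for control EC-like, 0.0996% for PD-1 inhibitor fibroblast-like, 0.0873% for cardiomyocyte-like and 0% for B cell-like nuclei.

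Against non-proliferating nuclei of all classes the list ratios were 6.21 for DNA replication, 8.33 for nucleotide synthesis, 15.2 for repair, 4.71 for cyclins, 2.37 for inhibitors, 15.3 for kinetochore, 16.2 for spindle, 41.1 for cytokinesis and 4.71 for condensin genes. With at least 3 rule UMIs they were 4.47 for DNA replication, 11.1 for repair, 3.56 for cyclins, 15.4 for kinetochore, 15.2 for spindle, 26.9 for cytokinesis and 4.28 for condensin genes. Without doublets they were 14.8 for kinetochore, 14.5 for spindle, 27.1 for cytokinesis and 4.31 for condensin genes. As a mean over nuclei they were 3.12 for cyclins and 22.5 for cytokinesis. With at least 500 UMIs, 30 of 54 list genes were 2-fold higher in both libraries.

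Between the libraries the log2 ratio as a mean over nuclei was 0.036 for spindle genes and 0.064 for transcription factors. In macrophage-like nuclei alone the spindle value was -0.15, transcription factors 0.64, kinetochore 0.28, condensin 0.16, cytokinesis -0.06 and histones -0.38. The cause of these shifts was not tested. The alternatives with macrophage-like nuclei, with at least 500 UMIs and with doublets removed within classes were chosen after seeing the data. Classes with few proliferating nuclei limit every comparison between the libraries, and the spread between hearts was not measured.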
